A study of Mus musculus with 6 samples.

Results

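The Siglec family comprises surface receptors of immune cells that bind sialic acid, the sugar that caps many glycan chains on cell surfaces. Transcripts of 7 members were followed in sorted mouse myeloid cells: Siglech, Siglece, Siglec1, Siglecg, Siglecf, Cd33 and Cd22. They were chosen by gene symbol from a table of read counts with 49016 symbols. The table holds 6 of them under these symbols, and the seventh, Siglecf, under the symbol Siglec5. In RefSeq that symbol is a synonym of 2 mouse genes, Siglecf and Siglece, of which Siglece has a row of its own. The gene length implied by the deposited counts and TPM (a level corrected for gene length, with an equal total in every library) was 2790 bases for the Siglec5 row. The joined exons of Siglecf also span 2790 bases, and those of Siglece 1849 bases, so the row is called Siglecf here. Implied and annotated lengths matched within 0.1% for 80.2% of 8967 genes compared.

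The study sequenced RNA from mice with the BRAF V600E mutation, labelled VE, and from wild-type (WT) mice. BRAF V600E is an activating change in a kinase of the RAS and ERK pathway. Each genotype gave 1 library of intravascular macrophages (IVM), 1 of microglia (MG), the resident macrophages of the brain, and 1 of monocytes, which circulate in blood. The groups were therefore VE IVM, WT IVM, VE MG, WT MG, VE monocytes and WT monocytes, with 1 library each and no treatment stated. The mouse strain, age and sex, the promoter or Cre line behind the mutation, the gates of the sorts and the number of animals per library stand in none of the sources used here. Gene counts cannot show whether a cell carried the mutation.

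The libraries held between 25787476 and 65519506 counts, and between 15121 (WT IVM) and 23214 (VE IVM) genes with a count. Levels are given as CPM, counts relative to the library total, after TMM scaling, edgeR's correction for differences in RNA composition. Microglia markers such as P2ry12 and Tmem119 summed to 61547 CPM in VE MG and 29192 CPM in WT MG, to 8074 CPM in VE IVM and 2312 CPM in WT IVM, and to 172 CPM in VE monocytes and 134 CPM in WT monocytes. Classical monocyte markers such as Ly6c2 and Ccr2 summed to 11599 CPM in VE monocytes and 7109 CPM in WT monocytes, against at most 1047 CPM in any other library. Patrolling monocyte markers such as Ace and Treml4 summed to 2982 CPM in VE IVM and 2376 CPM in WT IVM, above the other 4 libraries; no marker list of its own was used for IVM. For the 10 markers of T and NK cells, the sum was 2.53 CPM in VE IVM and 3535 CPM in WT IVM, so transcripts of T and NK cell genes were abundant in the WT IVM library. Neutrophil markers summed to 56359.8 CPM in VE monocytes and 1959 CPM in WT monocytes. Most of this came from S100a9 (23417 CPM in VE and 884 CPM in WT) and S100a8 (22567 CPM in VE and 595 CPM in WT). On the same list, Retnlg had 5696 CPM in VE and 3.94 CPM in WT, and Mmp9 349 CPM in VE and 0.466 CPM in WT. Ly6g had 2.2 CPM in VE and 0.169 CPM in WT. Csf3r was the only marker of the list that was lower in VE (89.9 CPM, against 169 CPM in WT). In such sorted bulk samples, fewer cells of a type and less RNA per cell cannot be told apart.

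Most Siglecs carry inhibitory motifs in their cytoplasmic tails. Once phosphorylated, these motifs recruit the phosphatases SHP-1 and SHP-2, encoded by Ptpn6 and Ptpn11, and dampen activating signals. Siglec-E, Siglec-F, Siglec-G and CD22 signal in this way in mice. Siglec-H lacks such a motif and instead pairs with the activating adaptor DAP12, encoded by Tyrobp. Siglec-1, also called sialoadhesin or CD169, is an adhesion receptor of macrophages with a long extracellular part and no inhibitory motif. In the brain, Siglec-H and CD33 are known from microglia, and human CD33 is linked to Alzheimer's disease risk.

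In the mouse genome build mm10 (GRCm38), 6 of the 7 genes lie on chromosome 7. Siglecf, Siglecg, Cd33 and Siglece sit together within 309 kb, between positions 43351341 and 43660161. Siglech lies 12.1 Mb away at chr7:55768178-55778925, and Cd22 at chr7:30865402-30880342. Siglec1 is on chromosome 2, at chr2:131069220-131086765. Cd22 is the only member whose exons overlap those of another gene, the antisense gene Gm29439, which had 0 or 1 counts in each library. The members are related in sequence, and how reads that match several of them were counted is not given in the sources used here.

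RefSeq promoters of GRCm38.p6, from 250 bases before the start site to 50 after it, were found for 6 of the 7 members, all but Siglec1. These members had 7 promoters between them, and only the first listed of a member was printed or aligned. Those of the 3 members with the highest levels, Siglech, Siglece and Cd33, are printed 5′ to 3′ on the strand of the gene. Capitals mark the core AGGAAG, or CTTCCT on the other strand, that is bound by PU.1, a transcription factor of myeloid cells. The windows stand at chr7:55767934-55768233 on the plus strand (Siglech), chr7:43660112-43660411 on the minus strand (Siglece) and chr7:43533122-43533421 on the minus strand (Cd33). That of Cd33 lies inside the annotated gene, chr7:43524216-43544428, and not at its 5′ end.
Siglech: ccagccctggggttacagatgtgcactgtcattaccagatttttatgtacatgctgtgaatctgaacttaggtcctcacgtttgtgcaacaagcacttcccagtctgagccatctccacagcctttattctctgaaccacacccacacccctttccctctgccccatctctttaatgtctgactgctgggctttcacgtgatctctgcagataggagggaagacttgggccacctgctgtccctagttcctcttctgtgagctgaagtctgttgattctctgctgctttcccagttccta
Siglece: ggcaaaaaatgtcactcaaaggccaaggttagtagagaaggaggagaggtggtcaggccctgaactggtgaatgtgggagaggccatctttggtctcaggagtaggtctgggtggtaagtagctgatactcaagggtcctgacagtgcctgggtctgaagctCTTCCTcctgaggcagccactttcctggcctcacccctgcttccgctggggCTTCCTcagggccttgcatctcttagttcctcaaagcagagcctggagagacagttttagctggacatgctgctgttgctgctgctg
Cd33: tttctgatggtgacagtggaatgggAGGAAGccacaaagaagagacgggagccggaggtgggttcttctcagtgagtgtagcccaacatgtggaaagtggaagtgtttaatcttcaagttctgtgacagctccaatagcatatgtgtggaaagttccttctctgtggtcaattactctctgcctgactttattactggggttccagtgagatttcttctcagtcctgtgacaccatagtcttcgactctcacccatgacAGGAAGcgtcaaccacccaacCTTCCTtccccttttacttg
The core was found at 0 places in the Siglech window, 2 in that of Siglece and 3 in that of Cd33. Of all 32851 promoters of the same length, 35.4% hold it. An interferon response element (GAAA, 2 bases of any kind, GAAA; 3.44% of promoters) and a PU.1 and IRF composite (GGAA, 2 bases of any kind, GAAA; 2.72%) were in none of these members' windows on either strand.

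The start regions of Siglecf and Cd33 shared a longer stretch. It is shown because no other pair of members had a common run of more than 10 bases. The stretch lies at chr7:43351306-43351389 on the plus strand for Siglecf and at chr7:43533252-43533336 on the minus strand for Cd33. Capitals mark bases that are identical in the alignment.
Siglecf: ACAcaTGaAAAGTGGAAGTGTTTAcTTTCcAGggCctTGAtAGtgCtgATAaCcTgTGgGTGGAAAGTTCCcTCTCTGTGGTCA
Cd33: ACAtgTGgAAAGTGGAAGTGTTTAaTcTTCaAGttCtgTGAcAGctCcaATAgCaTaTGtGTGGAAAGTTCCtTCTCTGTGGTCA
The aligned stretch had 65 identities over 85 columns (76.5%) with 1 gap, and the longest common run was 16 bases. It spans positions -35 to 48 from the start site of Siglecf and positions -165 to -81 from that of Cd33.

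The leading member of the family differed between cell types, and in part with the measure used. Per gene length, the 7 members summed to 1080.2 TPM in VE IVM and 111 TPM in WT IVM, to 2173 TPM in VE MG and 1259 TPM in WT MG, and to 32.2 TPM in VE monocytes and 22.8 TPM in WT monocytes. Within each genotype the family sum was highest in MG and lowest in monocytes. Siglech made up 87.2% of the family TPM in VE MG and 77.2% in WT MG. By TPM, Siglece was the leading member in monocytes, with 40.9% in VE and 51.8% in WT, followed by Cd33 with 38% in VE and 23.6% in WT. In IVM the leading member by TPM differed by genotype. Siglece led in VE IVM with 40.7% before Siglech with 34.6%, and Siglech led in WT IVM with 42.6% before Siglece with 23.7%. By CPM, with no length correction, Cd33 led in monocytes, with 61% in VE and 44.2% in WT. Siglech then led in both IVM libraries, with 33.3% in VE and 40.4% in WT. Siglecg held 0.658% of the family TPM in VE IVM and 16.8% in WT IVM. These shares compare members within a library, so library scaling does not enter them.

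**Figure D1:**
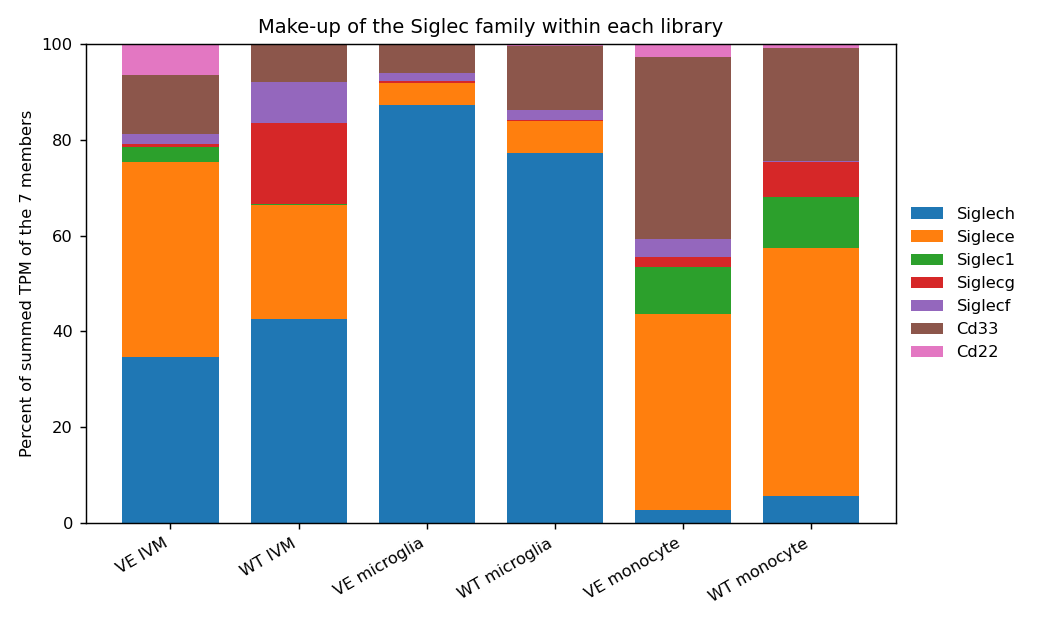
Stacked bars show each member's percent of the summed TPM of the 7 Siglec family members (y axis), in the VE and WT libraries of IVM, microglia and monocytes (x axis, 1 library per bar). Siglech fills 87.2% of the VE MG bar and 77.2% of the WT MG bar, while Siglece leads in both monocyte bars.

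Siglech, the DAP12-coupled member and a marker of microglia and plasmacytoid dendritic cells, had the widest span of the members that were counted at 10 or more in every library. It stood at 388 CPM in VE IVM and 113 CPM in WT IVM, at 3526 CPM in VE MG and 1513 CPM in WT MG, and at 3.65 CPM in VE monocytes and 2.8 CPM in WT monocytes. Both MG libraries were above both IVM libraries, and these above both monocyte libraries. The highest level was 1261 times the lowest.

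Siglech was higher in MG than in monocytes by a log2 fold change of 9.46 ± 1.29 (SE), with an adjusted p of 0.00178 by edgeR's quasi-likelihood test with genotype as a term and Benjamini-Hochberg adjustment (2 libraries per cell type). The fold was 966 within VE and 541 within WT. This call held in every alternative tried, with adjusted p between 9.71e-23 and 0.015 in edgeR, DESeq2 or limma. IVM exceeded monocytes by 6.03 ± 1.12, with an adjusted p of 0.0446 in edgeR, and by 106-fold within VE and 40.6-fold within WT. That call was lost without the VE monocyte library (adjusted p = 0.469), without the WT monocyte library (0.277), under library size alone (0.0982) and with no genotype term (0.113), in an edgeR range of 2.65e-09 to 0.469 over the alternatives. IVM lay below MG by -3.42 ± 0.98 (edgeR adjusted p = 0.202), and this difference passed the threshold in DESeq2 (0.0081), with no low filter (0.0265), and without the VE IVM library (0.00051) or the WT IVM library (0.0434).

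Markers of plasmacytoid dendritic cells were set beside Siglech, since those cells express it. In MG the 9 markers summed to 358 CPM in VE and 143 CPM in WT, mostly from Bst2 (184 CPM in VE MG and 44.4 CPM in WT MG) and Tcf4 (162 CPM in VE MG and 90.3 CPM in WT MG), which other cells express as well. Ly6d, Klk1 and Dntt had no count in VE MG, and Klk1 and Dntt none in WT MG. Cox6a2 (7.49 CPM in VE MG and 3.35 CPM in WT MG) and Pacsin1 (4.98 CPM in VE MG and 4.64 CPM in WT MG) were higher in both MG libraries than in the other 4, as Siglech was. Runx2 went the other way, with 0.184 CPM in VE MG, 0.328 CPM in WT MG and at least 12.7 CPM in the other 4. It was lower in MG than in monocytes by -6.10 ± 1.28 on the log2 scale (edgeR adjusted p = 0.0184). Ccr9 had 0.0614 CPM in VE MG, 0.328 CPM in WT MG and 17.9 CPM in WT IVM. In IVM the list summed to 175 CPM in VE and 181 CPM in WT, and in monocytes to 430 CPM in VE and 237 CPM in WT. Microglia markers ran with Siglech across the libraries, and the part of either list in its level was not tested.

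Siglece, an inhibitory receptor of neutrophils, monocytes and macrophages, was most abundant in VE IVM. It stood at 250 CPM in VE IVM and 34.6 CPM in WT IVM, at 103 CPM in VE MG and 71.5 CPM in WT MG, and at 29.1 CPM in VE monocytes and 14.3 CPM in WT monocytes. All 4 IVM and MG libraries were above both monocyte libraries, while IVM and MG overlapped. By edgeR's quasi-likelihood test, the log2 fold change was 2.34 ± 0.81 for IVM against monocytes (adjusted p = 0.366) and 2.13 ± 0.78 for MG against monocytes (adjusted p = 0.178). Neither passed the threshold, but the first did without the WT IVM library (0.00228), and the second without the VE IVM (0.00785) or WT IVM library (0.00911).

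Cd33, in humans an inhibitory receptor of myeloid cells, was the second most abundant member in MG by CPM and TPM. It stood at 318 CPM in VE IVM and 47.8 CPM in WT IVM, at 549 CPM in VE MG and 602 CPM in WT MG, and at 114 CPM in VE monocytes and 27.3 CPM in WT monocytes. Both MG libraries were above the other 4, and the WT IVM level lay between the monocyte levels. MG exceeded monocytes by a log2 fold change of 3.59 ± 0.95, with an adjusted p of 0.0536 in edgeR's quasi-likelihood test. The adjusted p passed the threshold in DESeq2 (0.011), in limma on TPM (0.0464), without a low filter (0.00332), and without the VE IVM, WT IVM or VE MG library. It reached 0.672 in the least favourable alternative. IVM lay below MG by -2.35 ± 0.93 (edgeR adjusted p = 0.532), which passed without the VE IVM library (0.00374).

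Siglecf, an inhibitory receptor of eosinophils and alveolar macrophages, was low but measurable in brain cells. It stood at 19 CPM in VE IVM and 19.2 CPM in WT IVM, at 55 CPM in VE MG and 30.5 CPM in WT MG, and at 4.05 CPM in VE monocytes and 0.0424 CPM, a single count, in WT monocytes. MG was above IVM, and IVM above monocytes, in both genotypes. MG exceeded monocytes by 5.16 ± 1.55 on the log2 scale (edgeR adjusted p = 0.0924). That difference passed in DESeq2 (adjusted p = 0.00734), in limma on TPM (0.0377), without a low filter (0.00418), and without the VE IVM, WT IVM or VE monocyte library. IVM exceeded monocytes by 4.25 ± 1.56 (edgeR adjusted p = 0.417), which passed without the VE IVM (2.77e-06) or WT IVM library (0.00395). The eosinophil granule gene Prg2 had no count in VE MG and 0.0219 CPM in WT MG, and Epx had none in either. Ccr3, a chemokine receptor on the same list of 8 markers, had 3.93 CPM in VE MG and 2.75 CPM in WT MG, and no count in WT IVM or WT monocytes. The list summed to 4.45 CPM in VE MG and 2.84 CPM in WT MG, and its part in the Siglecf level was not tested.

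Siglecg, an inhibitory receptor of B-1 cells and dendritic cells that binds CD24, was highest in WT IVM. It stood at 10.5 CPM in VE IVM and 63.7 CPM in WT IVM, at 26.3 CPM in VE MG and 8.96 CPM in WT MG, and at 3.76 CPM in VE monocytes and 5.21 CPM in WT monocytes. The monocyte libraries were the 2 lowest, and IVM and MG overlapped. No cell type comparison passed the threshold in edgeR, with adjusted p of 0.554 for IVM and 0.396 for MG against monocytes and 0.941 for IVM against MG. Without the VE IVM library all 3 did (1.98e-05, 0.0391 and 0.045), while IVM against MG was 0.77 and became -0.91 without the WT IVM library and to -0.70 without the WT MG library.

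Cd22, the inhibitory co-receptor of the B cell antigen receptor, varied most between the IVM libraries. It stood at 107 CPM in VE IVM and 0.164 CPM (6 counts) in WT IVM, at 9.03 CPM in VE MG and 16.4 CPM in WT MG, and at 5.26 CPM in VE monocytes and 0.678 CPM (16 counts) in WT monocytes. IVM thus held both the highest and the lowest level of the 6 libraries. By edgeR's quasi-likelihood test, the log2 fold change of IVM against monocytes was 3.26 ± 2.05 (adjusted p = 0.754) and that of IVM against MG -0.54 ± 2.29 (adjusted p = 0.972). Both directions turned with the IVM library left out. IVM against monocytes was 5.0 without the WT IVM library (adjusted p = 6.95e-08) and -3.37 without the VE IVM library (0.0515). IVM against MG was 2.43 without the WT IVM library (adjusted p = 0.198), 2.74 without the WT MG library (1) and -5.98 without the VE IVM library (0.000116), and 2.08 with no genotype term (0.883). MG exceeded monocytes by 3.80 ± 1.89 (edgeR adjusted p = 0.336), which passed without the VE IVM (0.0248), WT IVM (0.00402) or VE MG library (0.00446). Without the WT MG library it turned to -1.39 (adjusted p = 1).

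Siglec1, the macrophage adhesion receptor, was the only member lower in both MG libraries than in both monocyte libraries. It stood at 74 CPM in VE IVM and 1.83 CPM in WT IVM, at 2.58 CPM in VE MG and 1.46 CPM in WT MG, and at 27 CPM in VE monocytes and 11.5 CPM in WT monocytes. MG lay below monocytes by 10.5-fold within VE and 7.86-fold within WT, a log2 fold change of -3.10 ± 1.27 with an adjusted p of 0.232 in edgeR. It passed the threshold without the VE IVM library (0.000579) or the WT IVM library (4.06e-05). IVM against monocytes had a log2 fold change of 0.02 ± 1.39 (edgeR adjusted p = 0.998), with IVM 2.74-fold above monocytes within VE and 6.3-fold below within WT, and of -2.76 without the VE IVM library (adjusted p = 0.0435). IVM against MG had 3.13 ± 1.44 (edgeR adjusted p = 0.72), with 4.73 without the WT IVM library (adjusted p = 4.63e-06) and 0.42 without the VE IVM library (0.773).

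**Figure D2:**
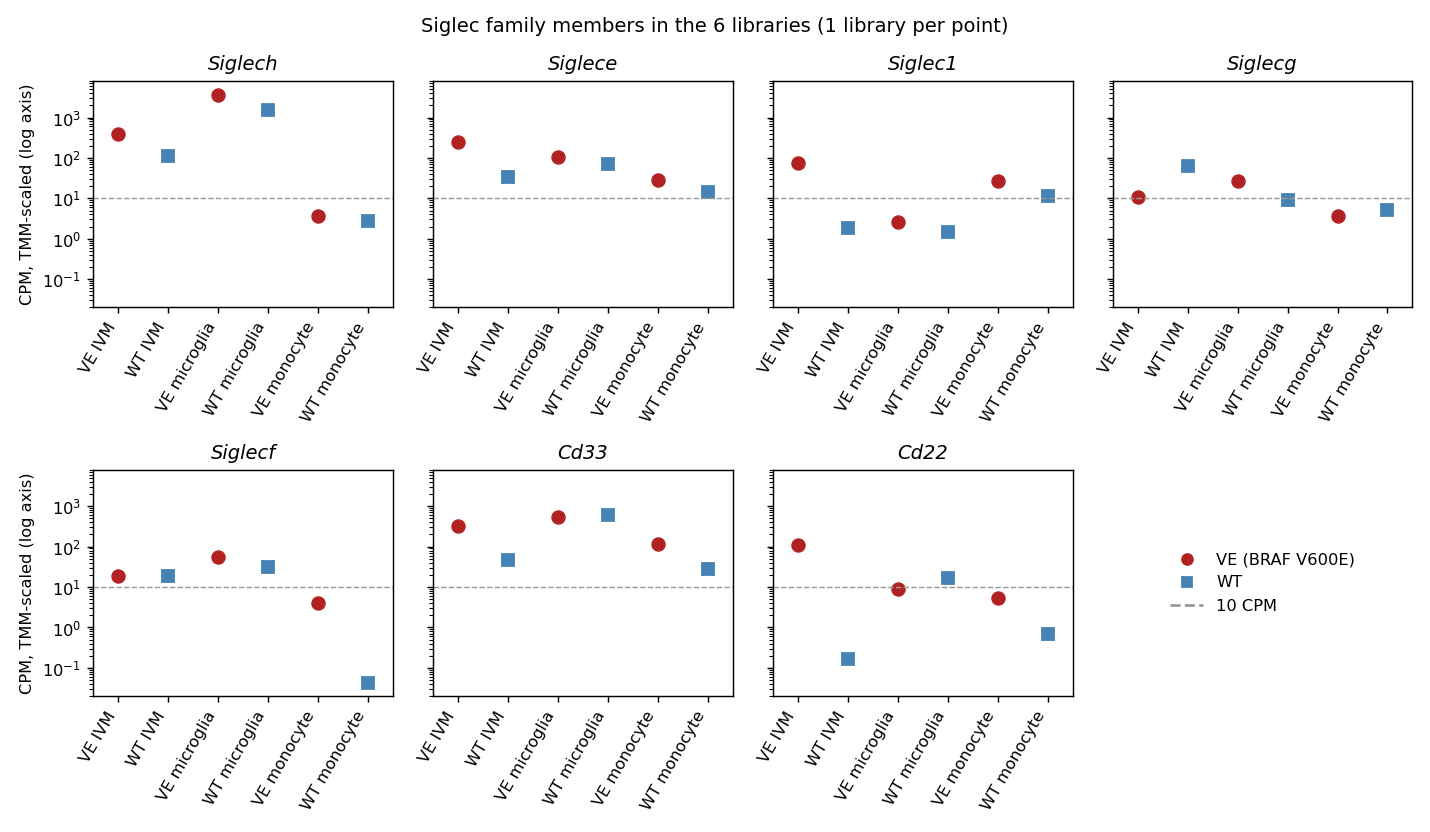
Each panel shows 1 Siglec family member, with TMM-scaled CPM on a log y axis and the VE (red circles) and WT (blue squares) libraries of IVM, microglia and monocytes along the x axis; each point is 1 library, and the dashed line is 10 CPM. Siglech spans 2.8 to 3526 CPM, and Cd22 lies at 107 CPM in VE IVM and 0.164 CPM in WT IVM.

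Across cell types, 1 of the 7 members was higher and 0 lower in MG than in monocytes at an adjusted p under 0.05 in edgeR, against 1.48% and 2.84% of 16979 genes tested (4.32% either way). At an unadjusted p under 0.05 in edgeR, 4 members were higher and 1 lower, against 2880 of the 16979 genes either way. DESeq2 called 3 members higher and 0 lower, against 2492 genes called either way. It was run without the filter that left 16979 genes, so its totals here and below are not shares of these. In both genotypes 6 members had MG levels above both monocyte levels and 1, Siglec1, below both, against 32.6% of all genes above and 29.7% below. For IVM against monocytes, 1 member was higher and 0 were lower in edgeR, against 0.247% and 0.171% of genes (0.418% either way). At an unadjusted p under 0.05 in edgeR, 4 were higher and 0 lower, against 1406 of the 16979 genes either way. DESeq2 had 1 higher and 0 lower, against 907 genes called either way. In both genotypes 4 members had IVM levels above both monocyte levels and 0 below both, against 20.3% of all genes tested above and 23.4% below. For IVM against MG, 0 members were higher and 0 lower in edgeR, against 1.08% and 0.0236% of genes (1.1% either way). At an unadjusted p under 0.05 in edgeR, 0 were higher and 2 lower, against 1178 of the 16979 genes either way. DESeq2 had 0 higher and 1 lower, against 874 genes called either way. In both genotypes 0 members had IVM levels above both MG levels and 3 below both, against 13.8% of all genes tested above and 22.3% below. The medians over the members were 3.59 for MG against monocytes, 2.90 for IVM against monocytes and -0.54 for IVM against MG, beside 0.13, -0.10 and -0.17 over all genes tested. Nothing in the labels says that the 2 libraries of a cell type came from several animals, and these 2 libraries differ in genotype. The spread behind these p-values is therefore how far cell type differences vary between the 2 genotypes, not a spread between replicates. A genotype ratio that differs between cell types counts as spread. The comparisons share libraries with each other.

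**Figure D3:**
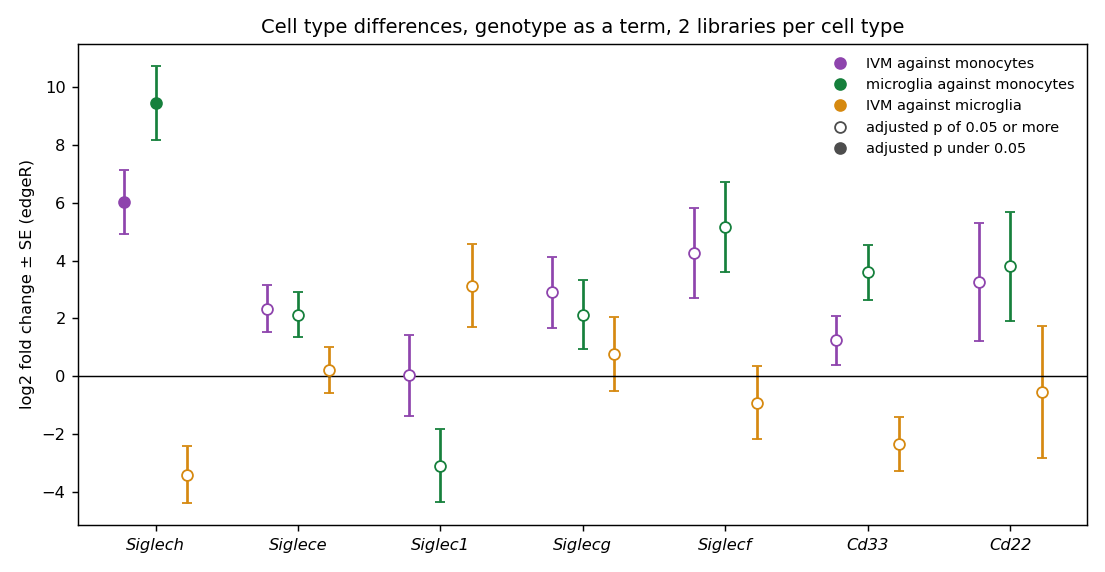
Points give the log2 fold change of each member (x axis) between cell types from edgeR with genotype as a term, for IVM against monocytes (purple), microglia against monocytes (green) and IVM against microglia (orange), with bars of 1 SE and 2 libraries per cell type. Filled points have an adjusted p under 0.05, which holds only for Siglech, at 9.46 and 6.03 against monocytes.

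Between genotypes each cell type had 1 library per group, so no p-value could be given and the ratios have no replicate check. Intervals of a fold are 95% exact conditional binomial intervals, and they cover counting error only, since PCR reads without molecular identifiers are not independent molecules. A gene counted as higher or lower where its log2 ratio was at least 2 in size (4-fold) and the larger of both levels was 10 CPM or more.

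In IVM, 4 of the 7 members were higher in VE by this rule and 1 was lower, against 16.5% of 9565 genes higher and 13.1% lower (29.6% either way); all 7 reached 10 CPM. Cd22 had a log2 ratio of 9.0 (655-fold, interval 301 to 1785) and Siglec1 of 5.30 (40.5-fold, 31.8 to 52.3). Siglece stood at 2.85 (7.22-fold, 6.82 to 7.65) and Cd33 at 2.73 (6.66-fold, 6.34 to 6.99). Siglecg was the lower member, at -2.60 (6.07-fold lower, 5.62 to 6.57). Siglech lay inside the 4-fold bound at 1.77 (3.42-fold, 3.31 to 3.54), and Siglecf had 1619 counts in VE IVM and 703 in WT IVM, a log2 ratio of -0.02 whose sign turned under other scalings. The members' median log2 ratio was 2.73, beside -0.13 over all genes at 10 CPM.

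The scaling bears on these ratios. On the deposited TPM the median of all genes in IVM was 1.12 in place of -0.13; there Siglecg had -1.27 and was no longer past the bound, Siglech had 2.96 and was past it, and Siglecf had 1.12. The predicted gene Gm23935 took 5.02% of the TPM in VE IVM and 46.6% in WT IVM. It took 1.13% in VE MG and 38.1% in WT MG, and 4.56% in VE monocytes and 8.1% in WT monocytes. A larger share of 1 gene lowers the TPM of all other genes of that library, so TPM sums and ratios between libraries bear this limit. Of the 4 higher members, none lost the call under any scaling tried, with log2 ratios between 2.73 and 9.26.

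B cell markers were set beside Cd22 and Siglecg in IVM. The 10 markers summed to 33 CPM in VE IVM and 78.9 CPM in WT IVM. In VE IVM, where Cd22 stood at 107 CPM, Pax5 had no count and Ms4a1 had 0.0234 CPM, while Cd79b had 26.3 CPM and Cd79a 5.49 CPM. In WT IVM, where Siglecg stood at 63.7 CPM, Blk had 63.8 CPM and Ms4a1 13 CPM, and Cd79a, Pax5, Fcer2a, Vpreb3 and Cr2 had no count. The T and NK cell markers were all lower in VE IVM, 10 of 10, and their part in the ratios of the members was not tested. Neutrophil markers were higher in VE IVM for 7 of 8 (686 CPM in VE and 131 CPM in WT), among them Mmp8, Ltf, Ngp and Retnlg. Classical monocyte markers were higher for 3 of 6 (1047 CPM in VE and 427 CPM in WT), namely Fn1, F13a1 and Chil3. The part of these lists in the ratios of Siglece and Cd33 was not tested.

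Border macrophage and interferon response genes were set beside Siglec1, which border macrophages express and interferon is known to induce. The border macrophage markers summed to 670 CPM in VE IVM and 42.4 CPM in WT IVM, and 6 of the 6 that reached 10 CPM were higher, among them Cbr2, Ms4a7, Mrc1 and Pf4. Of 12 interferon response genes at 10 CPM, 6 were higher in VE IVM and 0 lower, with 731 CPM in VE and 344 CPM in WT. Their part in the Siglec1 ratio was not tested.

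In MG, 0 of the 6 members at 10 CPM passed the bound in either direction, against 2.83% of 8798 genes higher and 4.64% lower (7.47% either way). Siglech had 1.22 (2.33-fold, 2.31 to 2.35) and Siglecg 1.55 (2.93-fold, 2.6 to 3.3). Siglecf stood at 0.85 (1.8-fold, 1.68 to 1.93) and Siglece at 0.52 (1.44-fold, 1.37 to 1.51), and Siglece had -0.10 when scaled by library size alone. Cd33 had -0.13 (1.1-fold lower, 1.08 to 1.12) and Cd22 -0.86 (1.82-fold lower, 1.59 to 2.09). Siglec1 was under 10 CPM in both libraries, at 0.80 (1.76-fold, 1.26 to 2.47). The median was 0.69 over the 6 members at 10 CPM, beside 0.12 over all genes at 10 CPM. Over the 7 members it was 0.80. The median over the 7 became 0.19 under library size alone (all genes at 10 CPM -0.62) and 0.26 on TPM (all genes at 10 TPM 0.21).

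The B cell markers in MG summed to 109 CPM in VE and 43.7 CPM in WT, nearly all from Cd79b with 109 CPM in VE and 42.5 CPM in WT. Ms4a1, Pax5, Blk, Fcer2a and Vpreb3 had no count in VE MG, and Ms4a1, Pax5, Ebf1 and Blk none in WT MG. Border macrophage markers summed to 203 CPM in VE and 441 CPM in WT, with 1 of the 2 at 10 CPM higher (Ms4a7). Interferon response genes summed to 211 CPM in VE and 71 CPM in WT, with 3 of 5 higher (Ifit3, Usp18 and Oasl2), while Siglec1 stood at 2.58 CPM in VE and 1.46 CPM in WT.

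In monocytes, Cd33 was the only one of the 3 members at 10 CPM past the bound, at 2.05 (4.16-fold, 3.83 to 4.53), against 6.37% of 8377 genes higher and 0.609% lower (6.98% either way). It fell below the bound under library size alone (1.47), DESeq2 size factors (2.00 after rounding) and TPM (1.06). Siglec1 had 1.23 (2.34-fold, 2.05 to 2.69) and Siglece 1.02 (2.04-fold, 1.8 to 2.31). The other 4 were under 10 CPM in both libraries. Cd22 had 199 counts in VE and 16 in WT (2.88, 7.77-fold, 4.67 to 13.9), and Siglecf 153 counts in VE and 1 in WT (95.5-fold, 16.9 to 3798). On log2(TPM + 1) the ratios were smaller, at 0.64 for Cd22, 1.11 for Siglecf, 0.27 for Siglec1 and 0.15 for Siglece. That scale understates the change of low genes such as Cd22 and Siglecf. For Siglece and Siglec1 the TPM themselves differed less than the CPM. Siglece had 13.2 TPM in VE and 11.8 TPM in WT, and Siglec1 3.17 TPM in VE and 2.47 TPM in WT. Library size alone gave 0.64 for Siglec1 and 0.44 for Siglece. Siglecg had -0.47 (1.39-fold lower, 1.08 to 1.78). Siglech had 0.38 with an interval that spans 1 (1.31-fold, 0.967 to 1.78), and -0.25 on TPM. The median was 1.23 over the 7 members and also over the 3 at 10 CPM, beside 0.05 over all genes at 10 CPM. The median over the 7 became 0.64 under library size alone (all genes at 10 CPM -0.58) and 0.27 on TPM (all genes at 10 TPM -0.69).

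Eosinophil markers moved with Siglecf in monocytes: they summed to 376 CPM in VE and 5.51 CPM in WT, and 7 of the 7 at 10 CPM were higher. Prg2, the eosinophil major basic protein, had 252 CPM in VE and 0.0847 CPM in WT. B cell markers summed to 42.9 CPM in VE monocytes and 20.1 CPM in WT monocytes, with Ms4a1 at 3.54 CPM in VE and 0.0847 CPM in WT and Cd79a at 18.7 CPM in VE and 0.678 CPM in WT. Of the 2 B cell markers at 10 CPM, 1 was higher (Cd79a) and 0 lower, and Cd79b had 12.4 CPM in VE and 15.8 CPM in WT. Pax5, Fcer2a and Cr2 were also at lower levels in VE, all under 2 CPM. Neutrophil markers were higher for 8 of 10, and border macrophage markers for 6 of 7 (2067 CPM in VE and 52.8 CPM in WT). The part of any of these in the ratios of Siglecf, Cd22, Cd33, Siglece and Siglec1 was not tested. Of 11 interferon response genes, 1 was higher (Isg15) and 1 lower (Ifit3), with 526 CPM in VE and 725 CPM in WT.

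**Figure D4:**
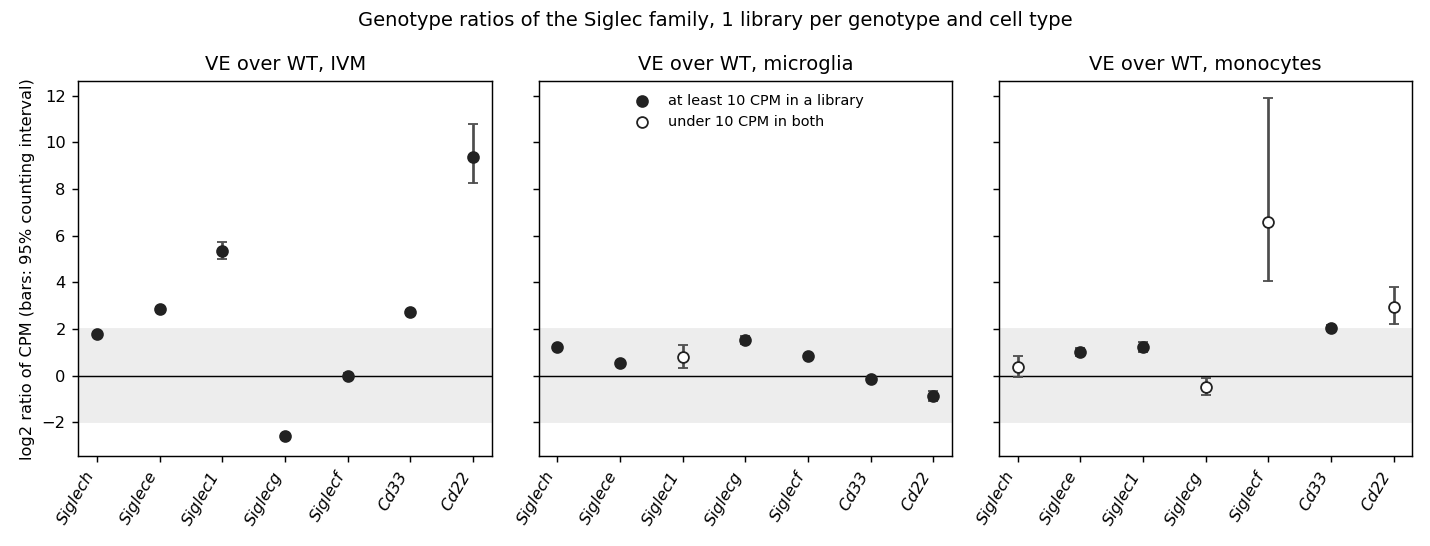
Points give the log2 ratio of VE over WT CPM, with no prior count, for each member (x axis) in IVM, microglia and monocytes; bars are 95% counting intervals of 1 library against 1 library, open points were under 10 CPM in both libraries, and the grey band marks ratios under 4-fold. In IVM 5 members lie outside the band, in microglia 0, and in monocytes Cd33 lies at its edge with Siglecf and Cd22 above it on low counts.

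Of 14 adaptors and phosphatases that act with Siglecs, Tyrobp, the partner of Siglec-H, had 1676 CPM in VE IVM and 797 CPM in WT IVM, 2989 CPM in VE MG and 1314 CPM in WT MG, and 18573 CPM in VE monocytes and 8175 CPM in WT monocytes. Tyrobp was thus highest in monocytes, where Siglech was lowest. Ptpn6 had 1110.2 CPM in VE IVM and 563 CPM in WT IVM, 895 CPM in VE MG and 508 CPM in WT MG, and 494 CPM in VE monocytes and 522 CPM in WT monocytes. By the 4-fold rule, 0 adaptors were higher and 2 lower in VE IVM (Hcst and Fyn), 0 higher and 2 lower in VE MG (Src and Grb2), and 0 either way in VE monocytes. Hcst, which encodes DAP10, had 27.2 CPM in VE IVM and 271 CPM in WT IVM, and 507 CPM in VE monocytes and 362 CPM in WT monocytes. The kinase Fyn had 38.2 CPM in VE IVM and 228 CPM in WT IVM. The part of the T and NK cell transcripts of the WT IVM library in these ratios was not tested. Between cell types, 0 of the 14 passed in edgeR in any of the 3 comparisons, with at most 2 in a direction at an unadjusted p under 0.05 and at most 2 in DESeq2.

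Sialyltransferases, which build the ligands of Siglecs, had 3 of 10 at 10 CPM higher in VE monocytes (St3gal6, St6gal1 and St3gal5) and 0 lower. In VE IVM 3 of 11 were higher (St3gal6, St6galnac4 and St3gal2) and 1 lower (St6galnac3), and in VE MG 0 of 10 were higher and 1 lower (St3gal2). St3gal6 had 252 CPM in VE IVM and 25.1 CPM in WT IVM, 769 CPM in VE MG and 392 CPM in WT MG, and 24 CPM in VE monocytes and 2.88 CPM in WT monocytes. It was higher in MG than in monocytes by 6.20 ± 1.01 on the log2 scale (edgeR adjusted p = 0.00467), while St3gal1 was lower by -5.46 (0.0126) and St8sia4 by -3.01 (0.0394). St3gal6 and Siglech thus followed the same order of cell types.

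Of the 6 genes that make and activate sialic acid, only Nans passed the 4-fold rule, lower in VE IVM (20.5 CPM, against 122 CPM in WT IVM). Of the sialidases, which remove sialic acid, Neu1 alone reached 10 CPM and stayed under 4-fold in all 3 cell types. Among 7 glycoproteins known as Siglec ligands, Cd24a, which encodes the Siglec-G ligand CD24, was higher in VE monocytes (166 CPM, against 20.6 CPM in WT monocytes). The integrin Itgam was higher in VE IVM (346 CPM, against 58.9 CPM in WT IVM), and 0 passed in VE MG. In MG against monocytes, Spn, the ligand CD43, was lower by -7.49 ± 0.95 (edgeR adjusted p = 0.00127) and Cd24a by -8.48 ± 1.34 (0.004). Both were higher in IVM than in MG, by 7.71 (0.00314) and 6.67 (0.0203). Of 2 further Siglec genes, Mag, a myelin Siglec of oligodendrocytes, had 13 CPM in VE IVM and 1.12 CPM in WT IVM, 51.8 CPM in VE MG and 33.2 CPM in WT MG, and 2.41 CPM in VE monocytes and 0.466 CPM in WT monocytes. Mag was higher in MG than in monocytes by 5.48 ± 1.35 (edgeR adjusted p = 0.0413), and Siglec15 was at 0 counts in all libraries but VE IVM.

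The genes whose log2(CPM + 1) followed each member most closely over the 6 libraries were sought among 9971 genes that reached 10 CPM. Pearson's r is given as a description with n = 6, and the points share library scaling and cell type. Siglech was followed by Ppcdc (0.999), Slc2a5 (0.998) and Olfml3 (0.998); the last 2 are microglia markers, and Olfml3 stood at 3426 CPM in VE MG and 1366 CPM in WT MG. Cd33 was followed by Nop2 (0.995), Mlxipl (0.990) and Plod1 (0.989), and Siglecf by Rnf128 (0.997), Fam234b (0.990) and Il21r (0.988). Siglece was followed by Las1l (0.982), Map2k1 (0.979) and Pmpca (0.957). For Siglecg, highest in WT IVM, they were Ftsj1 (0.998), Terf1 (0.996) and Alkbh1 (0.994). For Siglec1 they were Eri1 (0.992), Itga8 (0.991) and Mvp (0.986), and for Cd22 Igsf9 (0.980), Htra3 (0.978) and Col14a1 (0.964).

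Among the members themselves, r over the 6 libraries was highest for Siglech with Siglecf (0.93) and Siglece with Cd22 (0.89), and lowest for Siglec1 with Siglecg (-0.57). Per length, the ratio of Siglech to Cd33 was 2.8 in VE IVM and 5.45 in WT IVM, 14.8 in VE MG and 5.77 in WT MG, and 0.0738 in VE monocytes and 0.235 in WT monocytes. That of Cd22 to Siglecg was 9.75 in VE IVM and 0.00245 in WT IVM, 0.328 in VE MG and 1.75 in WT MG, and 1.34 in VE monocytes and 0.124 in WT monocytes. The ratios within a library need no scaling between libraries.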

How the data were processed

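Libraries were made from RNA of sorted cells with a full-length cDNA kit for very low input and a transposase-based library kit, per the labels' protocols. The authors deposited raw read counts per gene and a second table of TPM, per the file headers. The submitters' processing notes name STAR 2.5.2b, Subread 1.5.2, Trimmomatic 0.37, bcl2fastq 2.20 and the build mm10. How strand was used, and which annotation, is not given in the sources used here. Of 49315 lines, 176 with no gene name (0.00507% to 0.0166% of counts) were left out. Another 26 with date-like symbols (0.0618% to 0.237% of counts) were also left out, and 94 repeated symbols were summed.

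Counts were scaled by TMM. Cell types were compared with edgeR 4.0.16 (R 4.3.3), quasi-likelihood test, all 6 libraries, genotype as a term, filterByExpr by cell type, 2 residual degrees of freedom and Benjamini-Hochberg adjustment over 16979 genes. Genotype log2 ratios used a prior count of 2, and nothing was tested with 1 library per group. Alternatives were DESeq2 1.42.0, limma 3.58.1 on log2(TPM + 1), other scalings, filters and prior counts, and leaving out each library. Sequences are RefSeq's, and gene coordinates GENCODE's for GRCm38.

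The members and the 16 gene lists set beside them were chosen with earlier results of these data known. All 7 members are named. Of each list up to 4 genes per genotype comparison with the largest ratios past the 4-fold rule could be named. Genes at or near 0 counts, the most abundant genes of a marker list, Tyrobp, Ptpn6 and cell type calls were added after their values were seen, and of each member the 3 genes of highest correlation were named. A planned search of the protein sequences was not made. The values of 1 marker gene are not reported here.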

Additional observations from a re-analysis of the deposited data

Results flagged for a closer look

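Some members had VE over WT log2 ratios of opposite sign in 2 cell types, with both counting intervals away from 1. Each ratio compares 1 library with 1 library, so the differences were not tested. Siglecg had -0.47 in monocytes and 1.55 in MG (difference -2.02), and -2.60 in IVM and 1.55 in MG (difference -4.15). Cd33 had 2.05 in monocytes and -0.13 in MG (difference 2.18), and 2.73 in IVM and -0.13 in MG (difference 2.86). Cd22 had 2.88 in monocytes and -0.86 in MG (difference 3.74), and 9.0 in IVM and -0.86 in MG (difference 9.86). The signs of these ratios held under every scaling and prior count tried.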

How the results depend on the processing

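Of the member values compared between cell types, 197 under the alternatives kept direction and call, 33 passed only there, 4 lost the call, and 18 changed sign. With a library left out, IVM against monocytes ran from -2.76 to 1.55 for Siglec1 (-0.01 in DESeq2) and from -3.37 to 5.0 for Cd22, and MG against monocytes from -1.39 to 5.44 for Cd22. IVM against MG ran from -0.93 to 1.15 for Siglece, from -0.91 to 2.33 for Siglecg, from -2.69 to 0.42 for Siglecf and from -5.98 to 2.74 for Cd22, which had 0.55 on TPM, 0.03 under library size alone and 2.08 with no genotype term. Of the genotype ratios 53 moved little and 31 more than their counting interval. In monocytes the members higher (1) became 0 under library size alone, DESeq2 size factors and TPM, and 3 at 1 CPM or with no filter; all genes called (585) became 335 on TPM, 1710 at 1 CPM and 3713 with no filter. In IVM the members lower (1) became 0 on TPM, and all genes (2835) became 5724 at 1 CPM and 9051 with no filter. In MG all genes (657) became 1524 under library size alone, 1365 at 1 CPM and 2875 with no filter. The share of calls that were higher was 91.3% in monocytes (49.6% on TPM), 55.7% in IVM (83.6% on TPM) and 37.9% in MG (5.71% under library size alone).

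For IVM against monocytes the members higher (1) became 0 under library size alone and with no genotype term, and lay between 0 and 4 with a library left out (members lower 0 to 1). All genes (71) became 907 in DESeq2, 0 under library size alone, 14 with no genotype term, 429 with no filter, and 58 to 5079 with a library left out. For MG against monocytes the members higher (1) became 3 in DESeq2, on TPM and with no filter, and 1 to 6 with a library left out (members lower 0 to 1). All genes (734) became 2492 in DESeq2, 365 under library size alone, 487 with no genotype term, 1446 with no filter, and 382 to 5143 with a library left out. For IVM against MG the members lower (0) became 1 in DESeq2 and with no filter, and 0 to 3 with a library left out (members higher 0 to 1). All genes (187) became 874 in DESeq2, 82 on TPM, 88 under library size alone, 102 with no genotype term, 518 with no filter, and 162 to 5772 with a library left out. The highest counts came without the VE IVM library, with 1 residual degree of freedom, where a lone library is taken to vary like the others. The causes were not tested.

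On CPM in place of TPM, the family share of Siglece was 15.6% in VE monocytes, 23.1% in WT monocytes and 21.4% in VE IVM, and that of Siglech 40.4% in WT IVM, 82.6% in VE MG and 67.4% in WT MG. The leading member thus changed to Cd33 in VE monocytes (61%) and WT monocytes (44.2%), and to Siglech in VE IVM (33.3%). No paired analysis was possible because the labels carry no replicate numbers to pair libraries by; the genotype term, which sets cell types against each other within a genotype, was part of the main comparison. Depth limits Siglecf in WT monocytes (1 count) and Cd22 in WT IVM (6 counts).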
